A study of Mus musculus with 6 samples.

Results

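Heat shock proteins and DnaJ chaperones were followed in hippocampal RNA-Seq of mice with a deletion in Phf21b, which encodes a PHD finger protein that reads histone marks, and of mice without it. The genes were chosen by symbol (Hspa to Hsph and numbered Hsp genes, Dnaja, Dnajb, and Dnajc genes, heat shock factors, and Bag1 to Bag6), and 74 of the 14477 genes listed matched. The 3 Phf21bΔ4/Δ4 mice (replicates 2, 3, and 6) carried a CRISPR/Cas9 deletion in exon 4 of Phf21b in every cell of the body, and the 3 Phf21b+/+ mice (replicates 5, 7, and 8) were unmodified at this locus. Both genotypes were kept on the C57BL/6J background, received no treatment, and were sampled at baseline. The study's methods name young adult littermates of both sexes for its experiments, and the age and sex of each of these 6 mice are not given in the sources used here. The study's methods describe a single deletion allele, so both copies of the gene carried it in each Phf21bΔ4/Δ4 mouse. Hspg2, which encodes the basement membrane proteoglycan perlecan, and Hspbap1, which encodes a protein that binds HSP27, matched the symbol rule but are not chaperones.

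Chaperones hold other proteins in a state from which they can fold, be moved, or be degraded. HSP70 proteins bind short exposed stretches of a client in a cycle of ATP use that J proteins (the Dnaj genes) start and that exchange factors (the Bag proteins, HSPBP1, and the HSP110 relatives of HSP70) reset, while HSP90 acts later on partly folded kinases and receptors. In neurons the same machinery works at the synapse, where HSC70 (Hspa8) with the J protein auxilin (Dnajc6) strips clathrin from vesicles and with CSPα (Dnajc5) keeps release proteins folded. Heat, oxidants, and misfolded protein activate HSF1, which binds alternating GAA units, the heat shock element, in the promoters of the inducible genes.

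The element is shown first, because genes that HSF1 is known to induce are among the members. A 2-unit element (GAANNTTC, which reads the same on both strands) lay within 250 bases before to 50 bases after a start site in 13 of the 60 members with a RefSeq promoter (21.7%) and in 6.93% of the 11292 listed genes with one. A 3-unit element (GAANNTTCNNGAA or TTCNNGAANNTTC, which are reverse complements of each other and each hold a 2-unit element) lay in 4 members (6.67%) and in 0.567% of the listed genes. The 4 members with 3 units are Dnajb6, Hspd1, Hspe1, and Hsph1, and the 30-base windows around their elements are printed 5′ to 3′ on the gene's strand from GRCm38.p6, with the element in capitals. The window is chr5:29735844-29735873 for Dnajb6, chr1:55088053-55088082 for Hspd1 and Hspe1, and chr5:149636279-149636308 for Hsph1.
Dnajb6: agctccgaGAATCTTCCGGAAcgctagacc
Hspd1: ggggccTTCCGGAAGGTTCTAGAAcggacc
Hspe1: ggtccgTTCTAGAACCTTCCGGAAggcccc
Hsph1: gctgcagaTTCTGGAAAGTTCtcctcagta
Hspd1 and Hspe1, which encode the ring and the lid of the mitochondrial chaperonin, are transcribed away from each other, and their windows are the same bases read on opposite strands. In that stretch 4 units follow one another. The elements lay upstream of the start sites in Dnajb6 (both of 2 sites), Hspd1, and Hspe1, and in Hsph1 15 to 27 bases past one start site and 36 to 48 bases past another. The other 9 members with a 2-unit element were Bag3, Dnaja1, Dnaja4, Dnajc27, Hspa1a, Hspa1b, Hspb1, Hspb6, and Hspb8. A match of letters is a description of the promoter and was not tested as a binding site.

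The reads on the listed genes numbered 20495605 in the shallowest library and 24881257 in the deepest. Levels are given in CPM (reads per gene scaled to the effective size of the library), and a change is the log2 difference Phf21bΔ4/Δ4 minus Phf21b+/+. Phf21b itself stood at 2.15, 3.57, and 3.87 CPM in the Phf21bΔ4/Δ4 mice and at 6.5, 5.23, and 6.47 CPM in the Phf21b+/+ mice (log2 change −0.96, SE 0.26, FDR = 0.14). Markers of hippocampal pyramidal and granule cells were present in all mice, and markers of neighboring tissue differed between them. The summed level of 14 medial habenula markers was 71.9 to 111 CPM in Phf21bΔ4/Δ4 mice and 372 to 568 CPM in Phf21b+/+ mice, that of 9 thalamus markers 134 to 236 and 413 to 689 CPM, that of 9 CA1 markers 1039 to 1205 and 427 to 471 CPM, and that of 8 dentate granule cell markers 376 to 838 and 916 to 1049 CPM. One library stood apart: 10 choroid plexus markers summed to 15969 CPM in Phf21b+/+ replicate 7, to 1006 CPM in Phf21b+/+ replicate 8, and to between 28.0 and 87.8 CPM in the other 4 mice. All 11 endothelium and pericyte markers were above 0 (0 called), with sums of 293 to 433 and 202 to 279 CPM. Of 10 astrocyte markers 6 were above 0 and 4 below (median log2 change 0.10), and 1, Aqp4, was called lower. In bulk tissue, fewer cells of a type and less RNA per cell cannot be told apart, and the part of tissue makeup in the values that follow was not tested.

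No chaperone gene passed the test for differential expression. With only 1.22% of all genes passing, a count of 0 among the 74 members does not show that they were unchanged. Of the 74 members, 0 passed an FDR under 0.1 with a fold change above 1.3 in limma's test, against 1.22% of all genes (0.553% higher and 0.663% lower in Phf21bΔ4/Δ4 mice). The count was also 0 with voom on the reads recovered from the values, against 0.905% of all genes. At an unadjusted p under 0.05, 21 members passed (28.4%, against 23.6% of all genes). The 2 genotypes did not overlap in 25 members (33.8%, against 31.0% of all genes), of which 15 were higher (20.3%, against 15.0%) and 10 lower (13.5%, against 16.0%) in Phf21bΔ4/Δ4 mice. These shares of the members lay near the background. With a fold change above 1.3 as well, 1 member, Hspa12a, was higher (1.35%, against 6.14% of all genes) and 6 were lower (8.11%, against 8.96%). Dnajb13 and Hspb6 are in both lower counts and among the 21. They entered the table only with the help of the Phf21b+/+ group, in which they are high, and are counted as a description only. The lowest FDR of any member was 0.135, for Hspa12a. The count rose without Phf21bΔ4/Δ4 replicate 6, as it did over all genes: 11 members passed (14.9%, against 19.5% of all genes). Without any one of the other 5 mice 0 members passed. Over all genes no more than 11 were then called higher and 34 lower, so these counts of 0 say little about the members. Of the 11, Dnajc6, Hspa12a, Hspa4l, Hsph1, Dnajc27, and Dnajb14 were higher, and Dnajc1, Dnajc9, Dnajc12, Hspb11, and Dnajb13 (again a description only) were lower. Sample weights, which ranged from 0.343 for Phf21bΔ4/Δ4 replicate 6 to 4.63 for Phf21b+/+ replicate 8, gave 13 members (17.6%, against 24.5% of all genes). Without Phf21b+/+ replicate 7, the library with choroid plexus markers, 23 members were higher without overlap (31.1%, against 17.6% of all genes) and 12 lower (16.2%, against 19.7%). Dnajb13 and Hspb6 are among these 13 and these 12, again as a description only.

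The size of the changes was small for most members. The median log2 change over the 74 members was 0.02, and over all genes it was −0.02. Above 0 were 41 members (55.4%, against 47.6% of all genes). The lowest was −2.33 (Dnajb13) and the highest 0.69 (Hspa12a). The 95% interval of the change lay wholly inside 1.3-fold in either direction for 32 members (43.2%), against 27.2% of all genes. Such members made up 7 of the 10 mitochondrial chaperones and J proteins, 6 of the 13 of the endoplasmic reticulum, 4 of the 7 exchange factors and HSP70 co-chaperones, and 2 of the 3 heat shock factors. They made up 2 of the 10 cytosolic HSP70 and HSP110 genes and 0 of the 4 J proteins of vesicles. They also made up 0 of the 4 genes counted as small heat shock proteins (Hspb1, Hspb6, Hspb8, and Hspb11). The members are more abundant than the background, with 37 of 74 above 60.2 CPM against 4036 of all 14477 genes. The share inside 1.3-fold was not computed for genes at like levels.

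**Figure D1:**
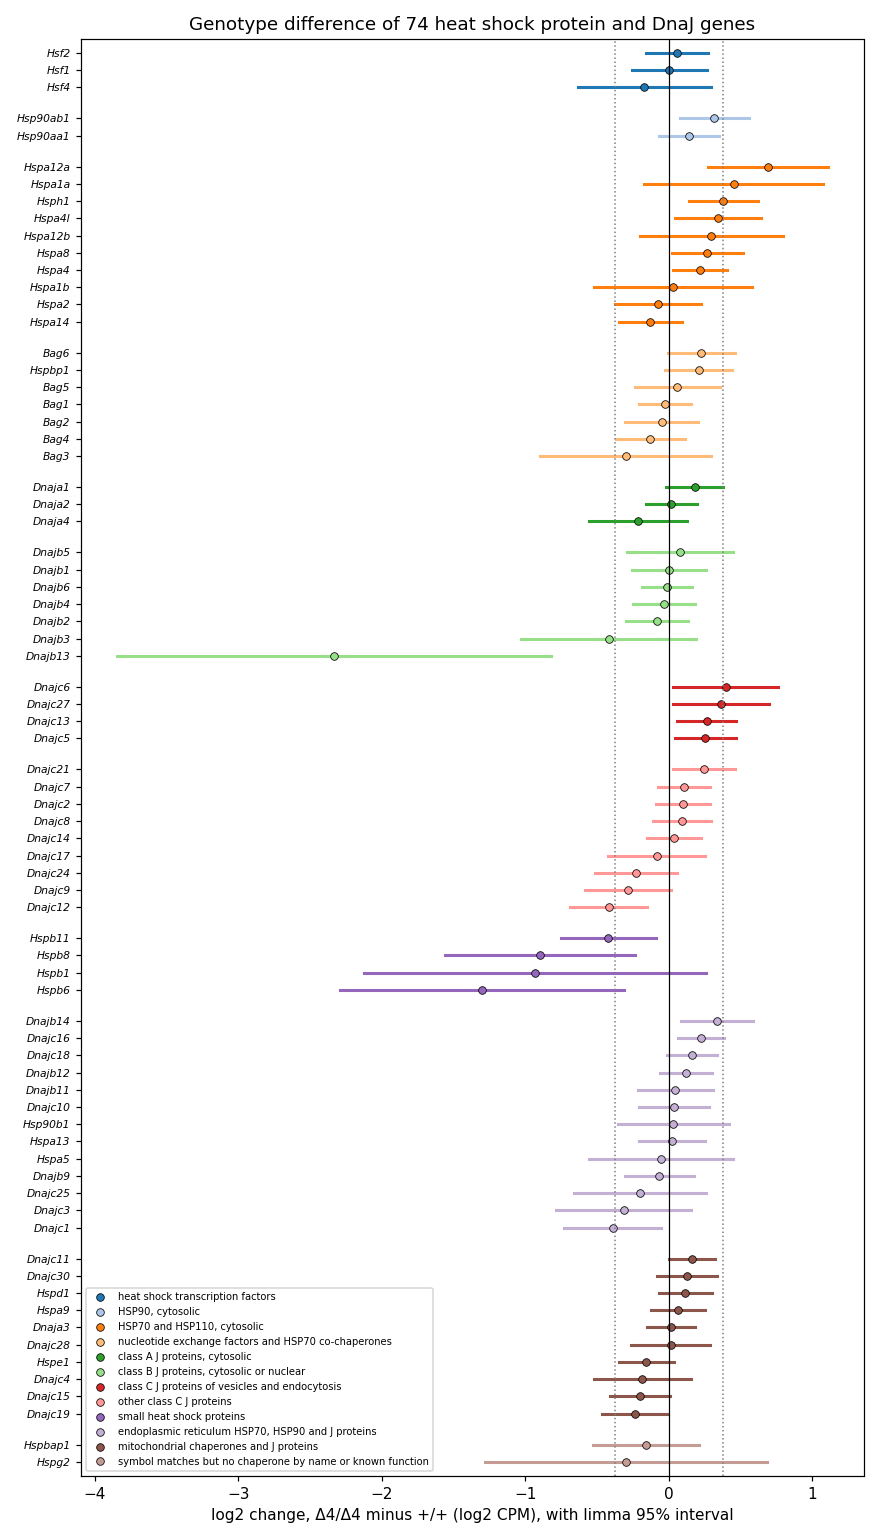
The log2 change (Phf21bΔ4/Δ4 minus Phf21b+/+, horizontal axis) of each of the 74 members is plotted by role, with bars for the 95% interval of limma's fit and dotted lines at a fold change of 1.3. The small heat shock proteins and Dnajb13 lie to the left with wide bars, the cytosolic HSP70, HSP110, and HSP90 genes mostly to the right of 0 (10 of 12 as deposited and 7 of 12 with quantile normalization), and most mitochondrial members between the dotted lines.

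The heat shock factors, which switch the inducible genes on, overlapped between the genotypes, with a median log2 change of 0.0036 over the 3 genes (0.083 with quantile normalization). Hsf1, the main factor of the heat response, stood at 18.1, 22.4, and 18.8 CPM in Phf21bΔ4/Δ4 mice and at 19.9, 18.9, and 20.1 CPM in Phf21b+/+ mice. Its log2 change was 0.0036 (95% interval −0.26 to 0.26, FDR = 0.99). Hsf2, a partner factor with roles in development, stood at 39.6, 34.6, and 33.5 CPM against 34.8, 35.5, and 33.2 CPM, also with overlap (log2 change 0.05, 95% interval −0.16 to 0.27). Hsf4, which is known from the lens, was listed at 3.44 to 5.36 CPM over all 6 mice. These are transcript levels, and HSF1 is switched on by changes to the protein.

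Among the genes that HSF1 is known to induce, the pair Hspa1a and Hspa1b was low, and it, Dnajb1, and Bag3 did not separate by genotype. Hsph1 and the inducible Hsp90aa1, given further below, were higher in every Phf21bΔ4/Δ4 mouse as deposited, and neither passed the test. Hspa1a, an inducible HSP70, stood at 4.72, 4.05, and 6.0 CPM in Phf21bΔ4/Δ4 mice and at 4.60, 2.62, and 3.73 CPM in Phf21b+/+ mice (log2 change 0.45, SE 0.26, FDR = 0.32). Its neighbor Hspa1b stood at 6.87, 4.24, and 7.22 CPM against 5.31, 5.78, and 6.47 CPM (log2 change 0.03, SE 0.23). Both genes overlapped between genotypes. Of the 75-base stretches in their exons, 61.7% in Hspa1a and 55.8% in Hspa1b also occur in another gene, mainly in each other, so the split of reads between the pair is uncertain. Dnajb1, the stress-induced J protein HSP40, had 41.9, 44.3, and 38.1 CPM against 38.2, 47.0, and 39.4 CPM, and the 95% interval of its log2 change was −0.26 to 0.26. Bag3, which links HSP70 to small heat shock proteins and autophagy, had 3.33, 4.86, and 2.61 CPM against 4.08, 4.14, and 4.67 CPM (log2 change −0.30, SE 0.25), with overlap. Over the 13 members with a 2-unit element the median log2 change was −0.01, with 6 above 0 and 7 below, and over the 47 other members with a RefSeq promoter it was 0.01, with 24 above 0 and 23 below. Of the 13, 1 (Hsph1) was higher without overlap and 3 (Hspb6, Hspb8, and Hspe1) were lower, and of the 47, 7 and 6. Hspb1, Hspb6 (of the 13), and Dnajb13 (of the 47) entered the table only with the help of the Phf21b+/+ group. They are high in that group and are counted as a description only. Over all genes 15.0% were higher and 16.0% lower without overlap. Members without a RefSeq promoter were not searched and are in neither set. Over all 74 members, 41 were above 0, 15 were higher without overlap, and 10 were lower.

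The cytosolic HSP90 genes and the constitutive HSP70 Hspa8 were the most abundant members per kilobase, and as deposited they stood higher in Phf21bΔ4/Δ4 mice without passing the test, whereas with quantile normalization only Hsp90ab1 of the 3 stayed above 0. Per kilobase of exon, Hsp90ab1 had the highest level of all members (460 CPM per kb over the 6 mice), followed by Hspa8 (293), Hsp90aa1 (186), Hsp90b1 (109), and Dnajc6 (107), while the median member had 12.6 CPM per kb. Hsp90ab1 (chr17:45567775-45573271), the constitutive HSP90β, was listed at 1559, 1545, and 1485 CPM in Phf21bΔ4/Δ4 mice and at 1288, 1192, and 1205 CPM in Phf21b+/+ mice. The groups did not overlap, and the means were 1530 ± 39.2 and 1228 ± 52.2 CPM (SD, n = 3 each), a log2 change of 0.32 (SE 0.10, FDR = 0.16). Hspa8 (chr9:40800984-40810087), the constitutive HSP70, had 1361, 1375, and 1388 CPM against 1196, 1185, and 1049 CPM (log2 change 0.27, SE 0.10, FDR = 0.19), again without overlap. Hsp90aa1, the inducible HSP90α, had 779, 779, and 745 CPM against 700, 734, and 657 CPM, and its groups were apart by a smaller step (log2 change 0.14, SE 0.09, FDR = 0.36). Hspa8 and Hsp90aa1 share 33.1% and 42.8% of their 75-base stretches with other genes, most of them without a name of their own.

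These directions depended on how the libraries were scaled. With quantile normalization, which gives every mouse the same distribution of values, the log2 change was 0.11 for Hsp90ab1, −0.0046 for Hspa8, and −0.11 for Hsp90aa1, and with all mice centred on their median it was 0.37, 0.32, and 0.19. A shift with abundance was seen over all genes. Of the 4036 genes above 60.2 CPM, the median level of the members, 68.7% had a log2 change above 0, against 39.4% of the 10441 genes at or below it. Among the members the shares were 29 of 37 (78.4%) above that level and 12 of 37 (32.4%) at or below it. With quantile normalization 16 of the 37 abundant members were above 0. The CA1 and the endothelium and pericyte marker sums given above were also higher in every Phf21bΔ4/Δ4 mouse, and their part in these levels was not tested.

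In the cytosolic HSP70 and HSP110 group, to which Hspa8 belongs, 8 of 10 genes were above 0 (6 of 10 with quantile normalization), 5 did not overlap, and 0 passed. Higher without overlap were 30.1% of all genes above 60.2 CPM, the range in which these 5 lie. Of the rest of the group only Hspa2 lies there. Hspa1a, Hspa1b, Hspa12b, and Hspa14 lie below it, where the share of all genes was 9.17%. Hspa12a (chr19:58795750-58943654), a distant HSP70 relative that is abundant in brain, had 481, 438, and 324 CPM in Phf21bΔ4/Δ4 mice and 295, 220, and 250 CPM in Phf21b+/+ mice. The lowest Phf21bΔ4/Δ4 mouse lay just above the highest Phf21b+/+ mouse, and the means were 414 ± 81.3 and 255 ± 37.7 CPM (log2 change 0.69, SE 0.18, FDR = 0.135). Without Phf21bΔ4/Δ4 replicate 6, which was the lowest of its group, the change was 0.86 and Hspa12a passed the test (FDR = 0.025). Hsph1 (chr5:149614287-149636376), the exchange factor HSP105, had 276, 317, and 264 CPM against 237, 203, and 219 CPM (log2 change 0.38, SE 0.10, FDR = 0.14), with no overlap. It too passed without Phf21bΔ4/Δ4 replicate 6 (log2 change 0.43, FDR = 0.051). Its relatives Hspa4 and Hspa4l, named after their values were seen, had log2 changes of 0.21 (SE 0.08) and 0.34 (SE 0.13), and neither overlapped. With quantile normalization Hspa4 was at −0.01, while Hspa4l and Hsph1 were at 0.13 and 0.20 and Hspa12a was at 0.46. Hspa2, known from testis, and Hspa14, a ribosome-bound HSP70, were the only genes of the group below 0, at −0.08 and −0.13.

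**Figure D2:**
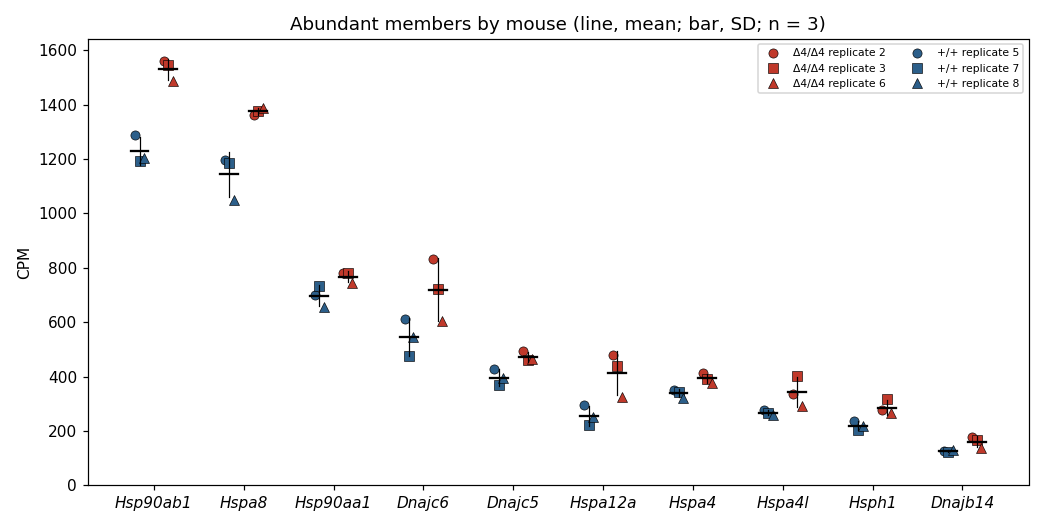
CPM (vertical axis) in each of the 6 mice for 10 abundant members, with the mean as a line and the SD as a bar. All 10 had a log2 change above 0 as deposited, and some were named after their values were seen. Hsp90b1, Hspa5, and Hspa9 are also abundant, had log2 changes of 0.03, −0.05, and 0.06, and are not drawn. As deposited, the Phf21bΔ4/Δ4 points (red) of Hsp90ab1, Hspa8, and Hsph1 lie above all Phf21b+/+ points (blue) and Dnajc6 overlaps, while with quantile normalization the change of Hspa8 was −0.0046.

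The 4 J proteins of vesicles and endosomes were all above 0 as deposited (3 of 4 with quantile normalization), at log2 changes of 0.25 to 0.40, and 2 of them did not overlap, with 0 called. All 4 lie above 60.2 CPM, where 30.1% of all genes were higher without overlap. Dnajc6 (chr4:101496648-101642799), auxilin, had 833, 721, and 603 CPM in Phf21bΔ4/Δ4 mice and 613, 474, and 547 CPM in Phf21b+/+ mice. The lowest Phf21bΔ4/Δ4 mouse lay below the highest Phf21b+/+ mouse (log2 change 0.40, SE 0.15, FDR = 0.19). Dnajc5 (chr2:181520485-181555133), CSPα of the synaptic vesicle, had 493, 460, and 464 CPM against 428, 369, and 393 CPM (log2 change 0.25, SE 0.09, FDR = 0.17) and did not overlap. With quantile normalization Dnajc6 was at 0.15 and Dnajc5 at −0.01. Dnajc13, which acts on endosomes, and Dnajc27, a Rab-like GTPase with a J domain, were named after their values were seen. Their log2 changes were 0.26 (SE 0.09) and 0.36 (SE 0.14), and with quantile normalization 0.18 and 0.22.

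The lowest changes among the members were those of the small heat shock proteins and Dnajb13, and for all of these but Hspb11 the Phf21b+/+ mice differed widely from one another. Dnajb13, Hspb6, and Hspb1 reached 1 CPM in fewer than 2 Phf21bΔ4/Δ4 mice, so they entered the table only with the help of the Phf21b+/+ group, in which they are high, and their changes and lack of overlap are given as a description only. Dnajb13 (chr7:100501716-100514960), a J protein of the axoneme of motile cilia, was listed at 0.506, 0.238, and 0.957 CPM in Phf21bΔ4/Δ4 mice, from 12, 5, and 22 reads, and at 1.33, 4.30, and 2.65 CPM in Phf21b+/+ mice, from 28, 102, and 59 reads. The groups did not overlap, and the log2 change was −2.33 (SE 0.64, FDR = 0.14). Of its exon bases, 11.2% overlap Ucp2. Hspb6, the small heat shock protein HSP20, had 0.801, 1.19, and 0.957 CPM against 1.33, 3.42, and 3.06 CPM (log2 change −1.30, SE 0.42, FDR = 0.16). Hspb8, the partner of BAG3, had 15.5, 14.7, and 15.4 CPM against 19.9, 44.8, and 25.6 CPM (log2 change −0.90, SE 0.28, FDR = 0.16). Both lay lower in every Phf21bΔ4/Δ4 mouse than in any Phf21b+/+ mouse, and Phf21b+/+ replicate 7 was the highest for each. Hspb1, HSP27, had 1.39, 0.953, and 0.826 CPM against 1.04, 3.80, and 1.93 CPM and overlapped (log2 change −0.93, SE 0.50, FDR = 0.29). It shares 46.4% of its 75-base stretches with other genes, mainly a pseudogene. Hspb11, which is part of the intraflagellar transport complex of cilia, had 5.69, 5.38, and 6.52 CPM against 8.02, 8.40, and 7.15 CPM (log2 change −0.42, SE 0.14, FDR = 0.17), without overlap and with Phf21b+/+ mice close together.

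Markers of the ventricle wall also differed between the mice. All 10 ependymal and motile cilia markers were below 0 (median log2 change −1.57, 0 called), and their sum was 72.7, 37.4, and 75.8 CPM in Phf21bΔ4/Δ4 mice and 80.9, 267, and 214 CPM in Phf21b+/+ mice. All 10 choroid plexus markers were below 0 as well (1 called lower), and the defining marker Ttr stood at 2.74 to 53.2 CPM in Phf21bΔ4/Δ4 mice and at 2.85, 14542, and 872 CPM in Phf21b+/+ mice. Kcne2 was listed at 0.00 CPM in Phf21bΔ4/Δ4 replicate 3 and Phf21b+/+ replicate 5. The order of all 6 mice was the same for Dnajb13 as for the ependymal sum, from Phf21b+/+ replicate 7 at the top to Phf21bΔ4/Δ4 replicate 3 at the bottom. Hspb6, Hspb1, and Hspb8 had the Phf21b+/+ mice in the same order as that sum, while Hspb11 was higher in Phf21b+/+ replicate 5 than in replicate 8. Hspb8 departed from the order of all 6 mice only by a near tie of Phf21bΔ4/Δ4 replicates 2 and 6 (368 and 355 reads). Among the Phf21bΔ4/Δ4 mice Hspb6 was highest in replicate 3, where the ependymal sum was lowest, from 25 reads against 19 and 22 in replicates 2 and 6. Without Phf21b+/+ replicate 7 the log2 changes were −1.94 for Dnajb13, −1.05 for Hspb6, −0.46 for Hspb1, −0.57 for Hspb8, and −0.37 for Hspb11. Hspg2 (perlecan), no chaperone but chosen by the rule, had 9.28, 10.3, and 4.83 CPM against 7.17, 16.3, and 7.37 CPM, and its log2 change of −0.30 became 0.09 without that mouse. The part of these cells in the levels of the members was not tested.

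**Figure D3:**
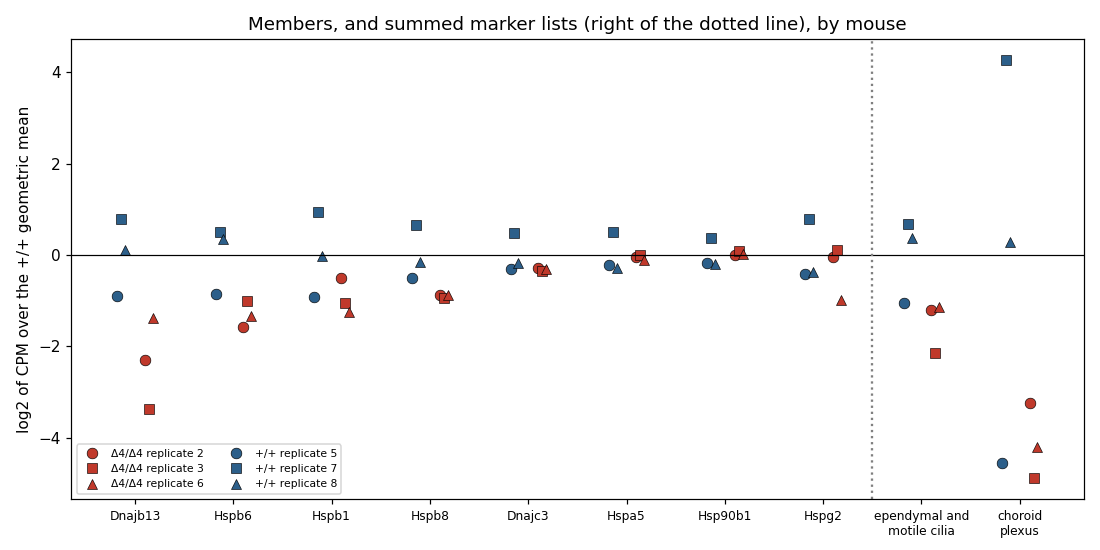
The log2 of CPM over the geometric mean of the Phf21b+/+ mice (vertical axis) is plotted for each mouse for 8 members and, right of the dotted line, for the summed ependymal and choroid plexus marker lists. Phf21b+/+ replicate 7 (blue square) is the highest mouse in each column, including Hspa5, Hsp90b1, and Dnajc3, whose other 5 mice lie close together.

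The chaperones of the endoplasmic reticulum had a median log2 change of 0.03 over 13 genes, with 3 that did not overlap on the higher side and 1 on the lower. Of all genes, 15.0% were higher and 16.0% lower without overlap. Hspa5, the HSP70 of this compartment (BiP), had 353, 359, and 333 CPM in Phf21bΔ4/Δ4 mice and 311, 515, and 295 CPM in Phf21b+/+ mice. Hsp90b1, its HSP90 (GRP94), had 429, 457, and 440 CPM against 383, 561, and 375 CPM. For both, Phf21b+/+ replicate 7 lay above all other mice and the other 2 Phf21b+/+ mice lay below every Phf21bΔ4/Δ4 mouse, so the log2 changes of −0.05 and 0.03 became 0.20 and 0.22 without it. With quantile normalization the change of Hsp90b1 was −0.25. Dnajc3, an inhibitor of the PERK kinase that was named after its values were seen, had 102, 97.9, and 100 CPM against 101, 174, and 111 CPM. Dnajc1, a J protein that binds the ribosome, had 37.0, 37.3, and 51.4 CPM against 52.4, 52.2, and 58.5 CPM. Its Phf21bΔ4/Δ4 replicate 6 lay just under the lowest Phf21b+/+ mouse (log2 change −0.39, SE 0.14, FDR = 0.18). Dnajb14 and Dnajc16, J proteins of the endoplasmic reticulum membrane that were also named after their values were seen, had log2 changes of 0.34 (SE 0.11) and 0.23 (SE 0.07) and did not overlap.

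The mitochondrial chaperones had changes close to 0, and most of their intervals were narrow. Hspa9, mortalin of the matrix, had 343, 322, and 340 CPM in Phf21bΔ4/Δ4 mice and 321, 339, and 302 CPM in Phf21b+/+ mice (log2 change 0.06, 95% interval −0.13 to 0.25). Hspd1 had 175, 165, and 165 CPM against 154, 167, and 145 CPM (log2 change 0.11, 95% interval −0.07 to 0.30). Hspe1 had 32.4, 29.1, and 29.5 CPM against 33.3, 33.0, and 35.3 CPM and lay lower in every Phf21bΔ4/Δ4 mouse (log2 change −0.16, SE 0.08, FDR = 0.28). The 2 chaperonin subunits, whose genes share the element shown above, had changes of opposite sign, and neither passed the test. With quantile normalization Hspa9 was at −0.15 and Hspd1 at −0.02. Over the 10 mitochondrial genes the median log2 change was 0.01, with 2 higher and 3 lower without overlap (15.0% and 16.0% of all genes).

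The remaining J proteins and exchange factors held no call either. Dnaja1, a major cytosolic J protein, had 159, 158, and 140 CPM in Phf21bΔ4/Δ4 mice and 133, 142, and 129 CPM in Phf21b+/+ mice (log2 change 0.18, SE 0.08, FDR = 0.24), with overlap. Dnajb6, which suppresses polyglutamine aggregation, had 37.5, 36.1, and 39.3 CPM against 39.0, 36.8, and 38.2 CPM (log2 change −0.01, 95% interval −0.19 to 0.16). Dnajc12 (chr10:63382443-63410576), a co-chaperone of the aromatic amino acid hydroxylases, had 10.4, 9.81, and 11 CPM against 13.1, 15.4, and 13.3 CPM. It did not overlap, with a log2 change of −0.42 (SE 0.11, FDR = 0.14). The 7 Bag and HSPBP1 genes had a median of −0.03 and 0 without overlap, against 31.0% of all genes. The other class B J proteins lay between −0.42 and 0.08, and the class A genes between −0.22 and 0.18. Dnaja4 at the low end of class A shares 44.1% of its exon bases with Wdr61, and the strand of the counting is not given.

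**Figure D4:**
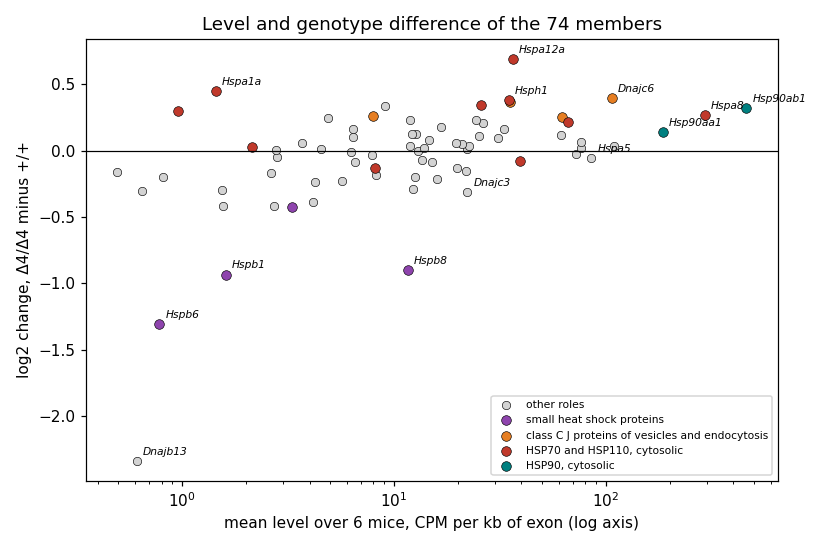
The mean level over the 6 mice in CPM per kilobase of exon (horizontal, log axis) is plotted against the log2 change (vertical) for the 74 members. The 5 members with the highest levels lie above 0 (with quantile normalization Hspa8, Hsp90aa1, and Hsp90b1 did not), and Dnajb13, Hspb6, and Hspb1, the lowest changes, lie at low levels.

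The mice were also described one by one, as the median over the 74 members of the log2 distance from the Phf21b+/+ mean (for a Phf21b+/+ mouse, from the mean of the other 2). This was 0.03, 0.02, and 0.05 in Phf21bΔ4/Δ4 replicates 2, 3, and 6, and 0.01, 0.01, and −0.03 in Phf21b+/+ replicates 5, 7, and 8. Over all genes the same medians were −0.02, −0.02, −0.01, 0.02, −0.03, and 0.01. Between 40 and 43 members were above the reference in each Phf21bΔ4/Δ4 mouse, and 41, 40, and 25 in the Phf21b+/+ mice. Members lay on both sides of the reference in every mouse, with quartiles of −0.27 and 0.18 in Phf21bΔ4/Δ4 replicate 3 and of −0.11 and 0.033 in Phf21b+/+ replicate 8. Phf21bΔ4/Δ4 replicate 2 had the highest value of 21 members (28.4%, against 16.1% of all genes) and Phf21b+/+ replicate 7 of 18 (24.3%, against 23.5%). The lowest value was that of Phf21bΔ4/Δ4 replicate 3 for 18 members (24.3%, against 24.8%), of Phf21b+/+ replicate 8 for 17 (23.0%, against 9.87%), and of Phf21b+/+ replicate 7 for 16 (21.6%, against 26.2%).

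The summed level of the 74 members was 11357, 11122, and 10677 CPM in Phf21bΔ4/Δ4 mice and 9919, 9988, and 9316 CPM in Phf21b+/+ mice. The means were 11052 ± 345 and 9741 ± 370 CPM (SD, n = 3 each), without overlap. With n = 3 each, a two-sided exact permutation test of the sum cannot give a p under 0.1, so it cannot decide. Hsp90ab1, Hspa8, and Hsp90aa1 together made up 32.4% of the sum, at 3672 ± 47.2 and 3069 ± 141 CPM. With quantile normalization the sum over the members was 10373 ± 85.4 in Phf21bΔ4/Δ4 mice and 10395 ± 595 in Phf21b+/+ mice, so the higher sum did not hold under that scaling, while with centring it was 11245 ± 444 and 9576 ± 339.

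Genes that work with the chaperones but fall outside the symbol rule were counted from lists. Of 24 partner co-chaperones of HSP90 and HSP70, 0 were called, with a median log2 change of 0.04. The 2 with the smallest p were Gak, the widely expressed relative of auxilin, at 0.27 (SE 0.08, FDR = 0.15), and Sugt1, an HSP90 partner, at 0.16 (FDR = 0.25). Of 14 subunits of the chaperonin TRiC and of prefoldin, which fold actin and tubulin, 0 were called, with a median of −0.06. Their smallest p were those of Pfdn5 (−0.25, SE 0.08, FDR = 0.16) and Cct5 (−0.21, SE 0.10, FDR = 0.26). Of 27 other genes of the endoplasmic reticulum stress response, 1 was called higher and 0 lower, with a median of −0.12. This was Sel1l, a scaffold of the degradation of misfolded proteins, with 308, 312, and 287 CPM in Phf21bΔ4/Δ4 mice and 220, 216, and 204 CPM in Phf21b+/+ mice (log2 change 0.51, SE 0.08, FDR = 0.067). The call was lost with quantile normalization (log2 change 0.33, FDR = 0.13), with the same prior variance for all genes (FDR = 0.12), and without any one of 5 of the 6 mice (FDR = 0.11 to 0.28), all but Phf21bΔ4/Δ4 replicate 6. Among Cryab, Clu, and Serpinh1, which are chaperones under other symbols, 0 were called. Clu, an extracellular chaperone, had 722, 750, and 785 CPM against 863, 1169, and 916 CPM (log2 change −0.37, SE 0.14, FDR = 0.18), and Serpinh1, the collagen chaperone, had a log2 change of −0.66 (SE 0.32). Both were highest in Phf21b+/+ replicate 7.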

How the data were processed

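Total RNA from the hippocampi of 6 mice was sequenced after ribosomal RNA depletion, and the sample labels gave the genotypes. The deposited file holds log2 CPM for 14477 genes. Per the labels and methods, the authors trimmed reads with Trimmomatic 0.39, mapped them to GRCm38 with STAR 2.7.3a, counted with featureCounts of Subread 1.6.4, kept genes at 1 CPM or more in 2 or more samples, and scaled them with edgeR. Prior count and counting strand are not given in the sources used here. Values were turned back into reads by removing the lowest value (−7.81, equal to 0 reads), which gave whole numbers for 100.0% of values (tolerance 0.1). These reads gave the depth, CPM, and means ± SD, and 3 reads equalled 0.127 to 0.143 CPM.

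For the comparison of genotypes, limma 3.58.1 (R 4.3.3) was run on the log2 values of all genes (lmFit, eBayes with trend, two-sided, no covariate), with Benjamini-Hochberg adjustment over all genes to give the FDR. A call needed an FDR under 0.1 together with a fold change over 1.3, the study's thresholds. The study's own test was edgeR's on counts, which was not run on log2 values, and voom on the recovered reads was an alternative. The fit was tested on simulated data. Members and lists were chosen with earlier results of these data known, and no set test is reported. Named with values were members whose genotypes did not overlap at a fold change over 1.3, the 5 with the highest level per kilobase, and members chosen by role. Genotypes did not overlap when every value of one lay above every value of the other. Exon lengths, gene positions, shared 75-base stretches, and exon overlaps came from GENCODE release M21 on GRCm38, while the authors counted on a later release. Promoters came from RefSeq (GRCm38.p6) and held 60 members. J-domain sequences were not analysed here. No source says whether libraries were prepared in batches. The p-values of the fit set the genotype difference against the spread within genotypes, with each gene's variance drawn toward a trend over all genes. The alternatives were another variance prior, robust fitting, sample weights, a filter on low values, other pseudocounts, other scalings, voom, a stricter FDR, and leaving out each mouse.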

Additional observations from a re-analysis of the deposited data

How the results depend on the processing

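No paired analysis was run, because the labels give no litter or other pairing of the mice. The count of 176 genes called became 75 with the same prior variance for all genes, 3549 with sample weights, 101 after dropping genes whose mean log2 CPM was under 1, 25 at an FDR under 0.05, and 9 to 2830 with a mouse left out. The 0 members called became 13 with sample weights, which gave Phf21b+/+ replicate 8 a weight of 4.63 and Phf21bΔ4/Δ4 replicate 6 a weight of 0.343, and 0 to 11 with a mouse left out, 11 being without Phf21bΔ4/Δ4 replicate 6. The cause was not tested. Members without overlap numbered 15 to 23 higher and 11 to 18 lower with a mouse left out, a choice made after seeing the data (20.3% to 31.1% and 14.9% to 24.3% of members, against 17.6% to 26.8% and 18.8% to 28.5% of all genes). Dnajb13 and Hspb6 are among the 13 with sample weights and in each lower count, as a description only. The endoplasmic reticulum stress list had 0 calls with the same prior variance, with quantile normalization, and at an FDR under 0.05, 5 with sample weights, and 0 to 6 with a mouse left out. The list of Cryab, Clu, and Serpinh1 had 1 with sample weights.

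The sign turned for 18 of 74 members with quantile normalization and for 4 with centring on the median, and the median change over all genes was then 0.019 and 0.030. Of the named members, quantile normalization turned Dnajc5 (−0.012), Hsp90aa1 (−0.11), Hsp90b1 (−0.25), Hspa8 (−0.0046), Hspa9 (−0.15), and Hspd1 (−0.015). Sample weights turned Dnajb1 (0.073), Hsf1 (−0.076), and Hspa5 (0.17), and centring turned Dnajb1 (0.049) and Dnajb6 (0.035). With a mouse left out the sign turned for Dnajb1 (−0.057 to 0.092), Dnajb6 (−0.046 to 0.016), Hsf1 (−0.091 to 0.064), Hsf2 (−0.017 to 0.10), Hsp90b1 (−0.070 to 0.22), Hspa1b (−0.11 to 0.27), and Hspa5 (−0.20 to 0.20). The median member of Phf21bΔ4/Δ4 replicates 2, 3, and 6 was at −0.0075, −0.078, and 0.016 with quantile normalization and at 0.10, 0.044, and 0.108 with centring, which put Phf21b+/+ replicates 5 and 7 at 0.046 and −0.038. Replicate 2 was at 0.044 with the filter on mean log2 CPM. With a mouse left out the medians ranged from 0.0022 to 0.064, −0.017 to 0.046, and 0.029 to 0.068 in the Phf21bΔ4/Δ4 mice and from 0.012 to 0.041, −0.012 to 0.043, and −0.043 to −0.041 in the Phf21b+/+ mice.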
